A study of Mus musculus with 12 samples.

Results

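Of 11563 genomic stretches that carried H3K27me3 in all 4 peak lists of postnatal day 2 mouse cortex, 9113 were shorter than 5000 bp and lay away from protein-coding promoters. These short shared stretches off promoters were 78.8% of the shared stretches but held 8.51 Mb, or 37.9%, of their sequence. They were chosen by the measured H3K27me3 peaks: neighbouring peaks of a list were joined across gaps of up to 500 bp, and a stretch counted where the joined peaks of all 4 lists covered it, was under 5000 bp long and did not overlap the window from 1 kb upstream to 100 bp downstream of any protein-coding transcription start site (TSS). The other shared stretches were 1496 short ones that overlapped such a window (at promoters) and 954 of 5000 bp or longer, of which 528 overlapped a promoter window and 426 did not. For comparison, 31791 merged H3K27me3 peaks under 5000 bp off promoters were found in only 1 list.

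The lists came from cortex of heterozygous Gad67-GFP pups, in which GFP labels cells that express the GABA-synthesizing enzyme GAD67, pooled from 2 to 3 litters for each replicate. GFP+ cells (cortical interneurons, CINs) and GFP- cells (non-CINs, a mixture of glutamatergic neurons, glia and other cells) were sorted, and native ChIP, in which chromatin is digested without cross-linking, was performed for H3K27ac and H3K27me3 in 2 replicates of each population. Both populations carried the same heterozygous Gad67-GFP allele and no treatment was given, and the sort defines them by GFP alone. The 4 H3K27me3 lists held 36662 to 45081 peaks over 34.5 to 49.8 Mb, the 4 H3K27ac lists held 46040 to 62505 peaks over 40.8 to 56.3 Mb, and on the X chromosome the H3K27me3 lists of replicate 1 held 703 and 773 peaks against 1931 and 2215 in those of replicate 2; 174 of the short shared stretches were on X. H3K27ac peaks lay at the promoters of 5 and 5 of 5 interneuron markers in the CIN lists and of 0 and 1 in the non-CIN lists, at 1, 1, 0 and 2 of 4 projection neuron markers (CIN replicates 1 and 2, then non-CIN replicates 1 and 2), at all 3 astrocyte and all 3 oligodendrocyte lineage markers in every list, and at 0 of 3 microglial and 0 of 3 endothelial markers in every list. The part of mixed cells in the results was not tested, and in sorted bulk chromatin a mark in few cells and a weak mark in many cells cannot be told apart.

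H3K27me3 is deposited by Polycomb repressive complex 2 and is associated with repressed or poised genes. In mammals it typically forms broad domains over the CpG islands of developmental regulators such as Hox genes, and it also occurs in gene bodies and between genes, where it can mark silent or poised regulatory elements. H3K27ac modifies the same lysine and marks active promoters and enhancers, so a single histone tail cannot carry both.

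The sequences below show the range found among these stretches, each as the 300 bp at the midpoint, read on the plus strand of GRCm38.p6 (the sequence of mm10) as given by RefSeq (all coordinates are mm10), with CpG dinucleotides in capitals. The Pde10a stretch had the highest H3K27me3 rank inside a gene and held 6 CpGs in its window, the Tc2n stretch was of similar rank with 0, and the strongest intergenic stretch, on chromosome 13, held 19. The chromosome 9 stretch ranked at the top of 3 of the 4 lists and lay in sequence that RefSeq soft-masks as repetitive over 85.3% of its window. The Elfn1 stretch carried H3K27me3 in both populations but H3K27ac only in CINs.
Pde10a intron, chr17:8798466-8798765: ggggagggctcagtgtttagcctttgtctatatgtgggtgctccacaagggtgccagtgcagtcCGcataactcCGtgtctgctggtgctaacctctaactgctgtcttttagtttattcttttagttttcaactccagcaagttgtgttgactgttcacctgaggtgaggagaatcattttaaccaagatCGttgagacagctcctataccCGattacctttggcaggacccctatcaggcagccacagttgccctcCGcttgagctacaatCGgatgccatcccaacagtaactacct
Tc2n intron, chr12:101716642-101716941: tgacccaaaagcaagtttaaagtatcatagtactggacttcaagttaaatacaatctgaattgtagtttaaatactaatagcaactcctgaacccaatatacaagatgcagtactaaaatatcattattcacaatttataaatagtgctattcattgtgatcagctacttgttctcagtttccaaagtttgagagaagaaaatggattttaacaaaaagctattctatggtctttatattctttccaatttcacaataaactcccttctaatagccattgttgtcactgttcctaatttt
intergenic, chromosome 13, chr13:23396473-23396772: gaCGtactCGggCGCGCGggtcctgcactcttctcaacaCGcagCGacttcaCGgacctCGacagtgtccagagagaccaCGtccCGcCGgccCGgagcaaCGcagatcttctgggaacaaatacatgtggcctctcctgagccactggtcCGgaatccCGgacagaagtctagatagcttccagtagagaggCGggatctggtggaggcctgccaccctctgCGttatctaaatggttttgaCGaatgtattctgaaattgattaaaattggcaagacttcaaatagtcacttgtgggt
intergenic, chromosome 9, chr9:35305195-35305494: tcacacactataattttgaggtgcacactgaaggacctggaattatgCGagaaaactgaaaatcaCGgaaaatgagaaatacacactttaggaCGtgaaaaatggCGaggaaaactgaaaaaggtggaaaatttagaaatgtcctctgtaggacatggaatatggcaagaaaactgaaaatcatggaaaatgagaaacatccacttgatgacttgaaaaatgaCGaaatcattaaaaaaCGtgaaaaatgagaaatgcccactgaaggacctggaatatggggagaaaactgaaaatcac
Elfn1 intron, chr5:139910393-139910692: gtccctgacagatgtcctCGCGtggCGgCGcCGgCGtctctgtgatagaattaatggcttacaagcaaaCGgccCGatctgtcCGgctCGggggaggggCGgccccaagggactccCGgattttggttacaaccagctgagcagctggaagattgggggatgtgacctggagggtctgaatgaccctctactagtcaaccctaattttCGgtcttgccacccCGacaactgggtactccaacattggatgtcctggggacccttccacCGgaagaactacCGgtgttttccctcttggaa

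The stretches were small pieces of chromatin. Their median length was 533 bp (interquartile range 257 to 1259 bp, minimum 1, maximum 4994 bp), against 1721 bp at promoters and 303 bp for peaks of 1 list. There were 1369 (15.02%) shorter than 200 bp and 1230 (13.5%) of 2000 bp or longer. Just inside the length limit were 3 intergenic stretches of 4994, 4990 and 4987 bp, nearest to the TSSs of Aym1, Lmo4 and Micall2, and just outside it were stretches off promoters of 5005 and 5006 bp, nearest to Sp4 and Tgfbr3. Their lowest percentiles of fold enrichment among the 4 lists (defined below) were 95.2, 87.6 and 94.5 inside the limit and 89.3 and 86.8 outside it.

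A shared stretch can be the common core of a broader peak in a single list, so the label was checked against each list. The merged peak that held the stretch had a median length of 1160 bp in CIN replicate 1, 2751 bp in CIN replicate 2, 1600 bp in non-CIN replicate 1 and 3271 bp in non-CIN replicate 2. It reached 5000 bp for 6.64%, 24.7%, 12.1% and 31.9% of the stretches in the same order. In at least 1 list this was so for 3586 stretches (39.4%), and in all 4 lists for 49. The merged peak touched a promoter window in at least 1 list for 1603 stretches (17.6%) and included a long shared stretch for 842 (9.24%). The remaining 4856 (53.3%) were short and off promoters in every list, and the gene body share, the distance to long stretches, H3K27ac and the CpG-rich share against promoters were repeated on them alone.

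Most of the stretches were intergenic. By midpoint, 5246 (57.6%) lay outside protein-coding gene bodies and 3867 (42.4%, 95% Wilson interval 41.4 to 43.5%) inside one, of which 3514 were intronic, 142 in the non-coding part of an exon and 211 in coding sequence. Gene bodies made up 39.1% of the assembled genome outside the promoter windows. Peaks of 1 list lay in gene bodies in 34.0% of cases (10798 of 31791), fewer than the short shared stretches (odds ratio 1.43, two-sided Fisher's exact test, p = 3.67e-49). Against the 1-list peaks of each list alone the odds ratio was 1.83 (CIN replicate 1), 1.15 (CIN replicate 2), 1.59 (non-CIN replicate 1) and 1.19 (non-CIN replicate 2). Regions are not replicates of a condition, and neighbouring stretches share a locus, so these p values describe the regions and not the spread between animals. With promoters widened to 2 kb on either side of the TSS the share was 35.4% against 32.3% (two-sided Fisher's exact test, p = 2.56e-07), and for the 4856 stretches that were short and off promoters in every list it was 37.9%. The first lay below the 38.1% of the genome outside those wider windows, and the second below the 39.1%.

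Of the intergenic stretches, 827 lay in a gene of another biotype, such as a long non-coding RNA, and 4419 outside every annotated gene. A promoter window of another biotype was met by 390 stretches (4.28%), against 2.02% of peaks of 1 list and 27.7% of long stretches. The median distance to the nearest protein-coding TSS was 20.8 kb (interquartile range 4.29 to 81.3 kb). There were 818 stretches (8.99%) less than 1 kb from a TSS, 1644 at 1 to 5 kb, 2034 at 5 to 20 kb, 2660 at 20 to 100 kb and 1942 (21.3%) farther than 100 kb.

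The stretches lay in groups. The next shared stretch of any kind was a median of 1.69 kb away and was within 5 kb for 6291 (69.1%). Joining stretches within 50 kb of each other gave 3524 loci, of which 1791 (50.8%) held a single stretch, while 445 loci with 5 or more held 4009 (44.0%) of all. The locus with most, 46 stretches, was at chr5:106993530-107335214 around Tgfbr3 and Brdt. The next held 41 around Foxb1, 37 on chromosome 2 with no protein-coding gene, 36 around Wif1, 34 on chromosome 11 with no protein-coding gene and 32 around Ebf2.

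Distances to long stretches are given as a description, since the same peaks defined both. The median distance from a short stretch off promoters to the nearest shared stretch of 5000 bp or longer was 352 kb (interquartile range 30.4 to 1548 kb), against 800.3 kb for short stretches at promoters and 847 kb for peaks of 1 list. A long stretch was within 5 kb for 1043 (11.5%) and within 50 kb for 2593 (28.5%), against 3.21% and 9.43% at promoters and 1.41% and 10.5% for peaks of 1 list. At the other end, 4054 (44.6%) were at least 500 kb from any long stretch. The stretches that were short and off promoters in every list had a median distance of 489 kb. The distance moved with the definitions: the median was 109 kb with a length limit of 3000 bp and 1640 kb with one of 10000 bp, 594 kb with no gap closed, 668 kb where a stretch had to cover 50% of each merged peak and 701 kb with 1 stretch per locus. The plot of cumulative distances shows the excess of near neighbours.

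**Figure D1:**
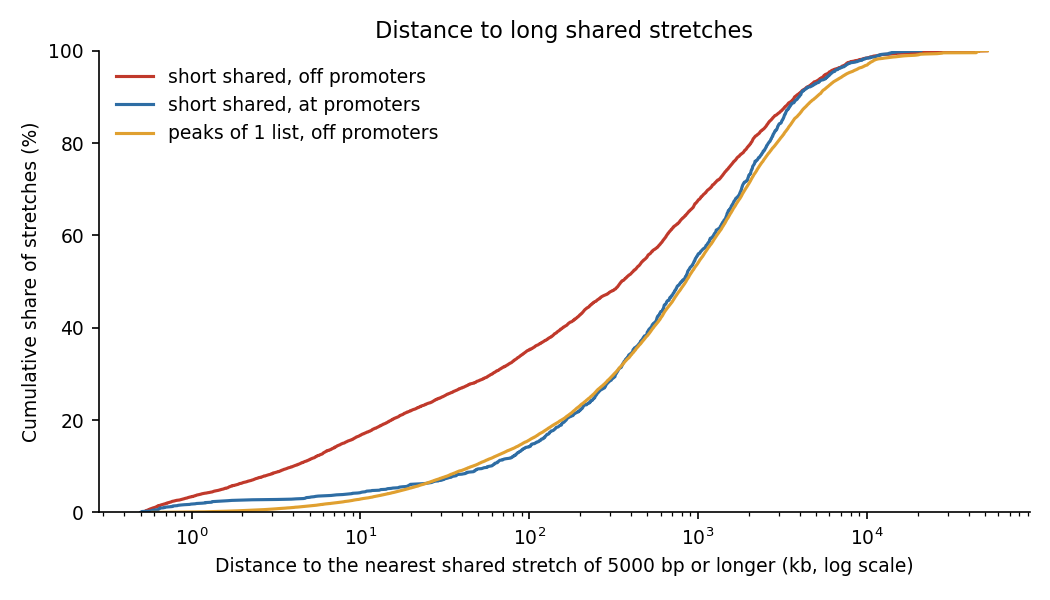
Cumulative share of stretches (y axis, %) by distance to the nearest shared H3K27me3 stretch of 5000 bp or longer (x axis, kb, log scale), for short shared stretches off promoters, short shared stretches at promoters and peaks of 1 list off promoters. The curve for stretches off promoters rises first, with 28.5% within 50 kb against 9.43% and 10.5%.

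H3K27me3 strength was taken as the fold enrichment over input of the strongest deposited peak over a stretch, as a percentile of all peaks in that list, because fold enrichment is not on the same scale in different lists. For 130 stretches, at least 1 list had no deposited peak directly over the stretch, which then lay in a gap closed by merging, and these have no complete set of 4 percentiles. The median percentile of the stretches was 66.8 in CIN replicate 1, 79.4 in CIN replicate 2, 73.1 in non-CIN replicate 1 and 83.9 in non-CIN replicate 2. Short stretches at promoters had medians of 87.8, 91.5, 87.3 and 91.1 in the same order, and long stretches 98.1 to 98.6. The stretches off promoters spread most: 13.1%, 5.69%, 9.71% and 3.52% of them were under the percentile of 25, and 15.8%, 20.6%, 21.02% and 30.3% at or over that of 90. These values describe the classes and were not tested, since the peaks that chose the stretches also gave the values. The classes also differ in length, and the strongest of more peaks is taken over a longer stretch.

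**Figure D2:**
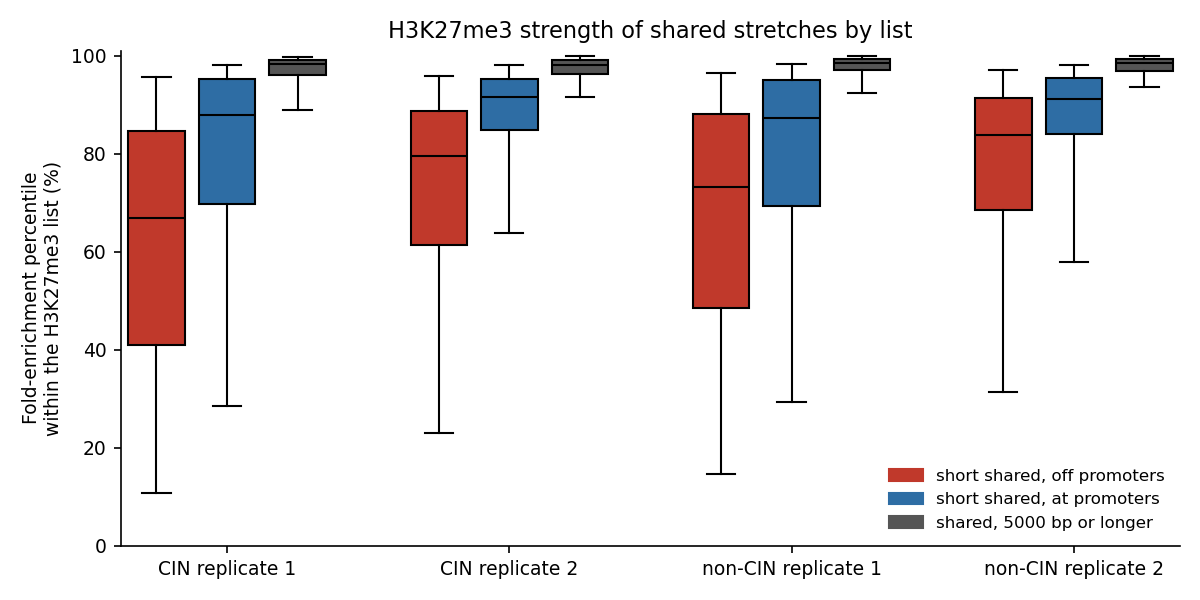
Fold-enrichment percentile within each H3K27me3 list (y axis, %) of short shared stretches off promoters, short shared stretches at promoters and long shared stretches, for each of the 4 lists (x axis). Boxes are the interquartile range with the median and whiskers reach the percentiles of 5 and 95 of the stretches; the stretches off promoters have the lowest medians, 66.8 to 83.9, and the widest boxes.

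Longer stretches had higher percentiles. The strongest peak over a stretch was taken, and a longer stretch can meet more peaks. Part of this order can thus come from the measure, and that part was not tested. In CIN replicate 1 the median percentile was 46.6 for stretches under 200 bp, 51.4 from 200 bp to under 500 bp, 66.0 from there to under 1000 bp, 77.6 from there to under 2000 bp and 90.1 at 2000 bp or longer. The other lists had the same order, from 60.5 to 92.0 in CIN replicate 2, 49.9 to 92.4 in non-CIN replicate 1 and 67.9 to 93.7 in non-CIN replicate 2. Across stretches, the percentiles of CIN replicate 2 and non-CIN replicate 2 were the most alike (Spearman rho 0.70, Pearson r 0.60, 9042 stretches), followed by those of CIN and non-CIN replicates 1 (rho 0.46). The replicates of a population had rho of 0.42 in CINs and 0.45 in non-CINs. These correlations run across regions within the same lists and carry no p value.

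The strongest stretches inside genes, by the lowest of the 4 percentiles, were mostly several kb long and close to a TSS but outside the promoter window. The first was a 4128 bp stretch in an intron of Pde10a, a phosphodiesterase of striatal neurons (chr17:8796552-8800679, 1014 bp from the TSS), with percentiles of 99.6, 99.6, 99.5 and 99.6 in CIN replicates 1 and 2 and non-CIN replicates 1 and 2. It was followed by 4497 bp in Nr6a1, an orphan nuclear receptor (lowest percentile 99.4, 360 bp from the TSS), and 599 bp in Aida (99.2). Next came 3198 bp over the coding exon of Hspa2, a testis-enriched HSP70 chaperone (99.1), and 2812 bp in an intron of Tc2n (98.9). The list of 8 was completed by 386 bp in Kctd16, an auxiliary subunit of GABA-B receptors (98.9), 4316 bp in Rbpms, an RNA-binding protein (98.7), and 3491 bp over a coding exon of Tcfl5, a germ cell transcription factor (98.5). Ranking by the lowest percentile selects stretches that rank high in every list, so their likeness between lists is fixed by the choice. Of the 8, 6 were no more than 1014 bp from their gene's TSS. The pair under 1000 bp, in Aida and Kctd16, also carried H3K27ac in all 4 lists, at percentiles of 60.8 to 94.8 and 85.9 to 90.6.

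Among intergenic stretches the strongest was 4606 bp long at chr13:23394320-23398925, 3.90 kb from a long stretch and 24.9 kb from the TSS of Abt1, with a lowest percentile of 99.4 and a highest of 99.9. The next 4 were only 407 to 741 bp long and lay 53.0 to 117 kb from a TSS, or 37.2 kb in the case of the one on chromosome 9. All 4 also carried H3K27ac in every list. The stretches were not checked against a list of problematic regions, and the part of such regions in these ranks was not tested. The other 3 were 1941 bp at chr3:56669478-56671418, 1.24 kb from a long stretch, 4318 bp in Otx2os1, a non-coding gene beside the forebrain homeobox gene Otx2 and 31.8 kb from a long stretch, and 2415 bp at chr3:96360977-96363391 at a TSS of another biotype. Their lowest percentiles were 98.6, 98.6 and 98.4.

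CINs and non-CINs were compared by asking where the percentiles of the 2 lists of a population both exceeded those of the other population. This was so for CINs at 912 of 8983 stretches (10.2%) and for non-CINs at 2201 (24.5%). Over all 11431 shared stretches with 4 percentiles, which include these 8983, the shares were 11.1% and 23.9%. The stretches off promoters make up most of this background, so their closeness to it is in large part fixed in advance. With the lists paired by replicate number, and the same direction asked for in both pairs, 1768 (19.7%) were higher in CINs and 3868 (43.1%) in non-CINs, against 20.8% and 41.9% of all shared stretches. With the mean fold enrichment weighted by overlap in place of the percentile, 347 (3.86%) were higher in CINs and 2109 (23.5%) in non-CINs, against 3.66% and 19.7% of all shared stretches. By the first rule, the shares in the other classes were 19.0% and 13.3% at promoters and 7.13% and 34.8% among long stretches. Within replicate numbers, the median difference between CIN and non-CIN percentiles at stretches off promoters was -3.14 in replicate 1 and -3.01 in replicate 2. The non-CIN percentile was higher at 58.0% of them in replicate 1 and at 65.4% in replicate 2. Over all shared stretches, which include these, the medians were -1.19 and -1.49 and the shares 57.9% and 63.1%.

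The stretches with the widest gaps between populations were short, and each lay under peaks of very different rank. A stretch of 95 bp in the non-coding part of an exon of Prrx1, a mesenchymal homeobox gene, had percentiles of 92.6 and 93.7 in CINs against 11.7 and 2.59 in non-CINs. It also carried H3K27ac in all 4 lists, at percentiles of 50.2 and 58.2 in CINs against 71.8 and 74.4 in non-CINs. A stretch of 67 bp in an intron of Skor2, a transcriptional corepressor, had 94.7 and 81.8 against 11.7 and 7.19, and one of 491 bp in an intron of Iqcm had 84.6 and 79.3 against 22.2 and 13.7. In the opposite direction, an intergenic stretch of 99 bp 109.6 kb from Irs2, an insulin receptor substrate, had 4.50 and 0.84 in CINs against 74.0 and 83.6 in non-CINs. Intergenic stretches of 46 bp near 3110018I06Rik and 215 bp near 3100002H09Rik had 20.6 and 10.3 against 95.04 and 84.6, and 2.38 and 15.5 against 80.8 and 78.7. In all 6 the groups did not overlap, which is the property they were selected on.

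H3K27ac was rare at the stretches, and 8347 (91.6%) met no H3K27ac peak in any list. An H3K27ac peak overlapped 639 stretches (7.01%) in CIN replicate 1, 330 (3.62%) in CIN replicate 2, 422 (4.63%) in non-CIN replicate 1 and 258 (2.83%) in non-CIN replicate 2. Peaks of 1 list off promoters met H3K27ac less often in every list, at 3.04%, 1.76%, 2.14% and 1.62% (odds ratios of the shared stretches 2.41, 2.099, 2.22 and 1.77, two-sided Fisher's exact test, adjusted p from 2.82e-57 to 1.70e-12 over 12 tests). Short stretches at promoters met it more often, at 16.6%, 6.62%, 11.5% and 4.75% (odds ratios 0.38, 0.53, 0.37 and 0.58, adjusted p from 2.01e-29 to 1.94e-04). Long stretches did so too, at 14.3%, 7.13%, 11.0% and 6.50% (odds ratios 0.45, 0.49, 0.39 and 0.42, adjusted p from 1.15e-13 to 1.29e-06). With H3K27me3 peaks of −log10 q of at least 4 the difference from promoters passed an adjusted p of 0.05 in 2 of 4 lists. Where a stretch had to cover 50% of each merged peak, it passed in 1 of 4 (odds ratios 0.66 to 1.08), as did that from long stretches.

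Longer stretches have more room to meet a peak, and the classes differ in length. Where only the midpoint was asked for, 3.73%, 2.26%, 2.27% and 1.89% of the stretches off promoters lay in H3K27ac in the same order of lists, against 5.48%, 2.41%, 3.34% and 1.94% at promoters and 3.77%, 2.201%, 1.26% and 1.36% for long stretches. The difference from promoters then passed an adjusted p of 0.05 in 2 of 4 lists and that from long stretches in 0. For peaks of 1 list the midpoint shares were 2.22%, 1.32%, 1.61% and 1.249%, and the difference was present in all 4 lists. Of short stretches of 1000 bp or longer, those at promoters met H3K27ac more often in all 4 lists, and the difference passed in 3 (odds ratios 0.49 to 0.72). With 1 stretch per locus the difference from promoters also passed in 3 of 4.

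**Figure D3:**
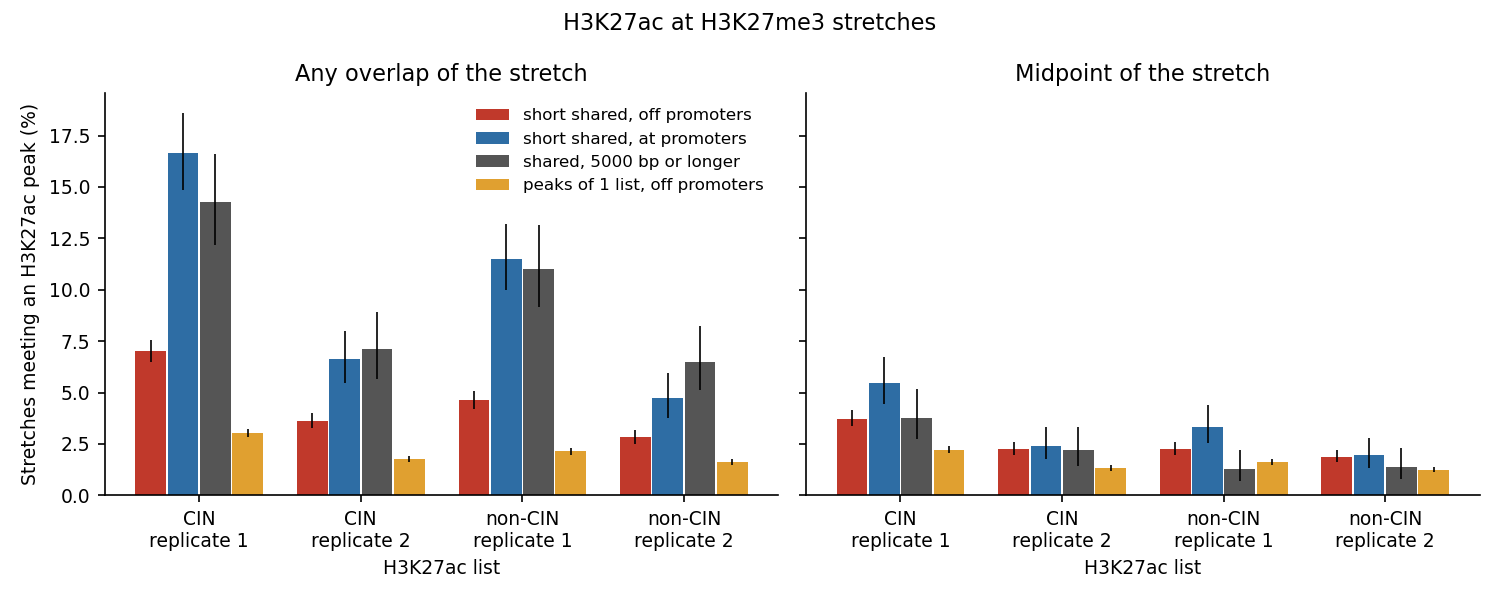
Share of stretches meeting an H3K27ac peak (y axis, %) in each of the 4 H3K27ac lists (x axis), by any overlap (left) and by the midpoint (right), for short shared stretches off promoters, short shared stretches at promoters, long shared stretches and peaks of 1 list. Error bars are 95% Wilson intervals over stretches; the stretches off promoters lie above the peaks of 1 list in all 4 lists in both panels, below promoters in all 4 lists in both panels, and below long stretches in all 4 lists only by overlap.

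Between populations, H3K27ac met 5.32% of the stretches in CINs and 3.73% in non-CINs as means of 2 lists, a difference of 1.59 percentage points (exact two-sided permutation test over 4 lists, p = 0.667, where the smallest possible p is 0.33). It was 2.38 points within replicate 1 and 0.79 within replicate 2, smaller than the spread between the replicates of CINs, and without CIN replicate 1 it was -0.11. The H3K27ac lists of replicate 1 were longer than those of replicate 2 in both populations.

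H3K27ac in both CIN lists and neither non-CIN list was found at 74 stretches (0.812%, against 0.986% of all shared stretches), and the reverse at 16 (0.176%, against 0.216%). Of the 74, 49 lay in gene bodies and 9 were CpG-rich, with a median length of 1012 bp. The one with the strongest H3K27me3 was 3335 bp in an intron of Elfn1, a synaptic adhesion protein of somatostatin interneurons (chr5:139908876-139912210). Its H3K27me3 percentiles were 97.6, 98.6, 99.3 and 99.0 and its H3K27ac percentiles 6.41 and 9.04 in the CIN lists. The next were 2314 bp in an intron of Dnm3, a dynamin (H3K27ac percentiles 60.3 and 56.8), and 4676 bp 21.7 kb from Calcoco1 (67.6 and 46.7). The other two were 1763 bp 13.4 kb from Cbx8, a Polycomb repressive complex 1 subunit, and 1.67 kb from a long stretch (88.6 and 73.6), and 4648 bp near Gm11733 (62.8 and 29.8). In these 5 the H3K27me3 percentiles of every list were over 96. They were higher in both non-CIN lists at Elfn1 and near Calcoco1, Cbx8 and Gm11733, and overlapped between populations at Dnm3. Of all stretches off promoters, 24.5% were higher in both non-CIN lists and 10.2% in both CIN lists.

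Of the 16 with H3K27ac in non-CINs alone, 12 lay in gene bodies. The first was 4365 bp in an intron of Stox2, 994 bp from its TSS, with H3K27me3 percentiles of 95.8, 98.2, 96.9 and 96.4 and H3K27ac percentiles of 63.3 and 64.8. It was followed by 3226 bp 277 kb from Insig2 and 2428 bp 5.21 kb from Cdkn2c, an inhibitor of cyclin-dependent kinases. The last of the 5 were 1244 bp in an intron of Gabbr2, a GABA-B receptor subunit, and 2704 bp in an intron of Cxcl14, a chemokine. Of these 5, the H3K27me3 percentiles did not overlap between populations at 3, where 10.2% of the stretches did not overlap with CINs higher and 24.5% with non-CINs higher. They were higher in CINs near Cdkn2c (94.5 and 94.7 against 91.6 and 84.5) and at Cxcl14 (96.3 and 93.3 against 79.2 and 88.1), and higher in non-CINs at Gabbr2 (91.4 and 89.9 against 86.0 and 81.7). H3K27ac in all 4 lists was found at 183 stretches (2.01%, against 2.24% of all shared stretches), with a median distance of 2.87 kb to a TSS, against 22.1 kb for the stretches with none.

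Most of the stretches were poor in CpG. A 300 bp window at the midpoint was called CpG-rich where GC content was over 50% and the ratio of observed to expected CpGs over 0.6. This held for 296 of 9098 stretches (3.25%, 95% Wilson interval 2.91 to 3.64%; 15 on unplaced contigs had no sequence), 303 of 1496 at promoters (20.3%), 182 of 954 long stretches (19.1%) and 210 of 31753 peaks of 1 list (0.661%). The stretches were CpG-rich less often than those at promoters (odds ratio 0.13, two-sided Fisher's exact test, adjusted p = 1.94e-107 over 3 tests) and than long stretches (odds ratio 0.14, adjusted p = 3.12e-68), and more often than peaks of 1 list (odds ratio 5.05, adjusted p = 7.40e-70). The share itself moved with how stretches were defined, to 10.4% where they had to cover 50% of each merged peak and 2.08% over the whole stretch in place of the window. The median GC content was 45.0% against 51.0% at promoters, 49.0% in long stretches and 43.7% in peaks of 1 list, and the median number of CpGs in the window was 3, 7, 5 and 2. Soft-masked repeats made up a median of 10.7% of the window, against 7.33% at promoters and 18.7% in peaks of 1 list.

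**Figure D4:**
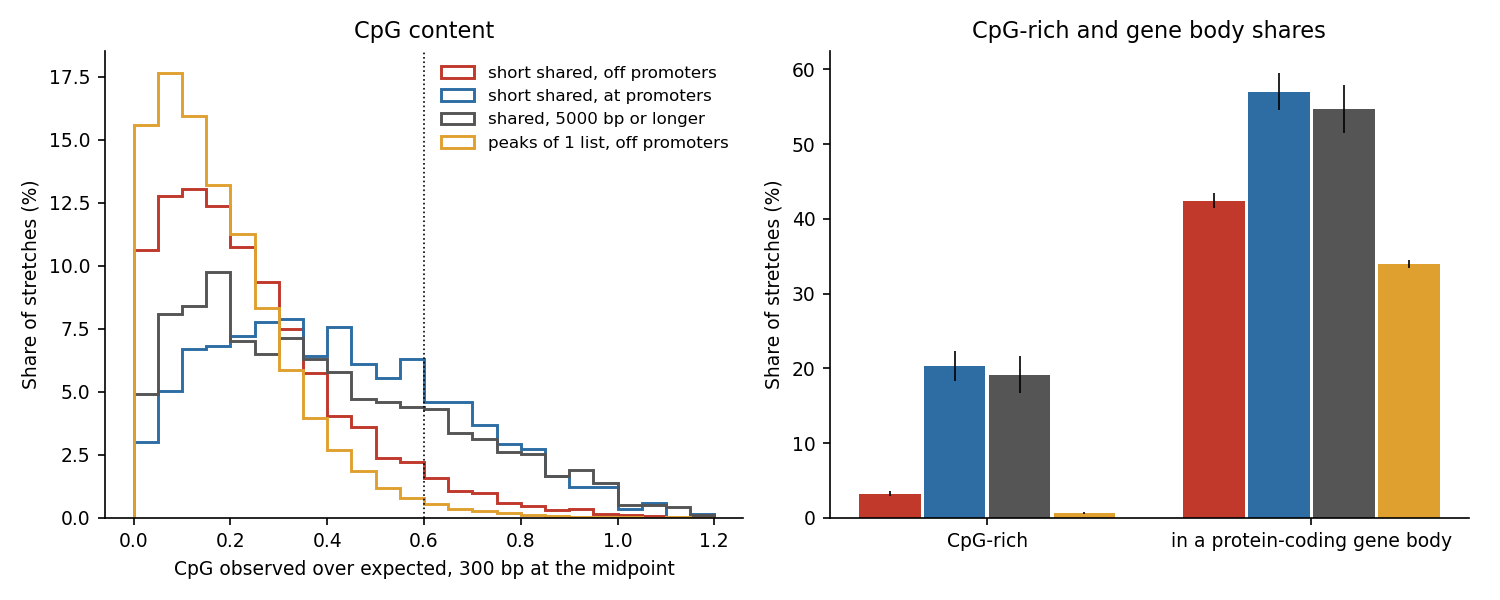
Left, distribution of the ratio of observed to expected CpGs in 300 bp at the midpoint (x axis; values over 1.2 are placed at 1.2) as a share of stretches (y axis, %) for the 4 classes, with a dotted line at 0.6. Right, shares (y axis, %) of stretches that were CpG-rich and that lay in a protein-coding gene body, with 95% Wilson intervals over stretches; 3.25% of the stretches off promoters were CpG-rich against 20.3% at promoters.

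The 296 CpG-rich stretches lay in gene bodies in 71.6% of cases, against 41.5% of the CpG-poor, and had a median length of 1178.5 bp against 517 bp. They met H3K27ac in 23.6%, 13.9%, 17.6% and 11.1% of cases in CIN replicates 1 and 2 and non-CIN replicates 1 and 2, against 6.36%, 3.17%, 4.19% and 2.45% of the CpG-poor. Their length alone gives more room for a peak, and the part of length in this difference was not tested. In gene bodies, 5.48% of the stretches were CpG-rich, and between genes 1.61%.

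Of 6 motif cores searched on both strands in the same windows, CGCG differed most from promoters, at 8.12% of the stretches, 30.1% of short stretches at promoters, 3.21% of peaks of 1 list and 38.0% of 32851 RefSeq promoters of the same length. TAATTA, a homeodomain core, was found in 7.92%, against 5.08%, 8.35% and 5.29% in the same order. The SOX core CTTTGT was found in 24.9%, against 18.4%, 26.1% and 18.7%, and the E-box CAGCTG in 13.2%, against 16.9%, 12.7% and 16.3%. GAGAGAG was found in 11.1% and the REST half-site core TCAGCACC in 1.53%, against 10.1% and 1.65% of RefSeq promoters. CGCG contains CpGs, so its share is set in part by CpG content, and AT-rich cores move the opposite way. A match describes letters in the window and not binding.

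The stretches were spread over many genes. At least 1 midpoint lay in the body of 1840 of 21951 protein-coding genes (8.38%), 1 in 1170 genes, 2 in 325, and 5 or more in 150. The 12 genes with most included transcription factors, receptors and long neuronal genes. The gene model of Fgfr2, a receptor for fibroblast growth factors, had 45, but it spans 2.96 Mb in this annotation. They lay 516 to 2290 kb from the start of the model, and 3 also lay in another protein-coding gene. Gm20388, a gene model of 4.43 Mb, had 43, of which 14 also lay in another protein-coding gene. These counts therefore depend on the annotation. Ebf2, a helix-loop-helix factor, had 29 stretches over 41.9 kb of its 198 kb, of 88 to 4784 bp each. Tgfbr3, a co-receptor for TGF-beta, also had 29, over 33.3 kb of 183 kb.

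The remaining 8 were Zfhx3, a zinc finger homeobox factor (28), Tenm4, a teneurin (26), Casz1, a zinc finger factor (25 in a gene of 150.5 kb), and Slit3, an axon guidance ligand (23). They were followed by Erc2, an active zone protein (22), Erbb4, the neuregulin receptor that CINs express (21), Ebf1 (20) and Wwox, an oxidoreductase (20). In Tgfbr3 the median percentiles were 59.5 and 83.0 in CINs against 87.9 and 91.1 in non-CINs. Both non-CIN medians were also above both CIN medians in Tenm4, Erc2, Erbb4 and Wwox, and the populations overlapped in the other genes. In Casz1 the medians were 62.4 and 85.4 in CINs against 83.5 and 92.3 in non-CINs. In Ebf1 they were 75.4 and 86.7 in CINs against 57.8 and 87.1 in non-CINs. None of the stretches in Tgfbr3 and Wwox met an H3K27ac peak in any list.

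**Figure D5:**
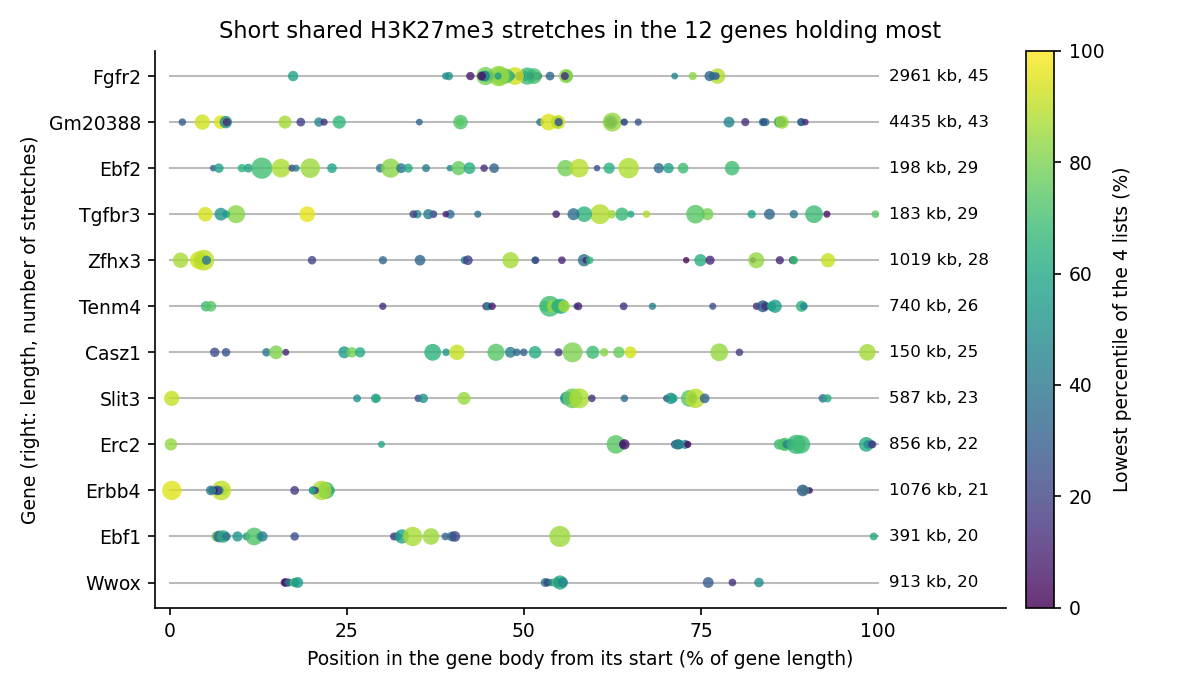
Positions of short shared H3K27me3 stretches in the 12 genes that hold most (y axis, with gene length and number of stretches at the right), as a percentage of gene length from the gene's start (x axis). Point area grows with the length of the stretch and colour gives its lowest percentile among the 4 H3K27me3 lists; stretches in Fgfr2 and Tenm4 sit in clusters, while those in Ebf2 and Casz1 run along the gene body.

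The genes that held a stretch were set beside all protein-coding genes, which include them, with no test. The median length of the 1840 was 57650 bp, against 17403 bp for all protein-coding genes. H3K27me3 in all 4 lists lay at the promoter of 754 (41.0%, against 9.67% of all genes), and 563 (30.6%, against 81.8% of all genes) had no H3K27me3 at a promoter in any list. H3K27ac in both CIN lists lay at the promoter of 603 (32.8%, against 48.9%), and in both non-CIN lists of 542 (29.5%, against 47.8%). In the 345 genes with 3 or more stretches these shares were 49.3% for H3K27me3 and 35.4% and 32.5% for H3K27ac. The H3K27me3 share rests on the lists that chose the stretches and is given as a description.

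Across 13 gene lists, 1 or more stretches lay in the gene body or 5 kb upstream in 0 of 39 Hox genes, against 11.4% of all protein-coding genes. All 39 Hox genes overlapped a long stretch instead. Among 83 patterning regulators of other lineages, 22 (26.5%) had a short stretch and 81 (97.6%) a long one. Pax8, a kidney and thyroid regulator, had 12, Pax5 9 and Pax3 7. Per 100 kb of gene window this list held 2.66 stretches, against 0.423 for all genes.

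Forebrain transcription factors were described beside the 11.4% of all genes, with no test. Of 31 subpallial and interneuron transcription factors, 15 (48.4%) held 80 in all, with 28 in Zfhx3, 20 in Ebf1 and 7 in Pbx3. Of 35 pallial transcription factors, 15 (42.9%) held 57, with 10 each in Tshz2 and Lhx2 and 6 in Pax6. Lhx2, a LIM-homeobox selector of cortex, had 10 within 1.31 to 19.8 kb of its gene start, with median percentiles of 80.3 and 91.7 in CINs against 50.1 and 86.7 in non-CINs. H3K27ac met 6, 6, 6 and 7 of them. Of the 6 in Pax6, a regulator of cortical progenitors, 6, 6, 5 and 6 met H3K27ac. Both genes carried H3K27ac and H3K27me3 at a promoter in all 4 lists.

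Of 26 GABA and interneuron subtype genes, 7 (26.9%) held 34 stretches, of which 22 were in Erbb4, 6 in Reln, an extracellular protein of interneurons, and 2 in Kit, a receptor tyrosine kinase. In Reln the longest was 3746 bp, and no stretch met H3K27ac. Of 62 receptor genes for neuropeptides, monoamines and acetylcholine, 28 (45.2%) held 43, with 6 in Adra1b, 4 in Adra1d and 3 in Tacr3. The list with the highest share was that of 41 voltage-gated channel genes, with 25 (61.0%), of which Kcnq1, in an imprinted region, had 20 and Kcnq3 had 4. It was followed by 47 axon guidance genes with 24 (51.1%), where Slit3 had 23, the SLIT receptor Robo1 18 and the ephrin receptor Ephb1 13. The median gene window in these 2 lists was 159883 and 159369 bp, against 22403 bp for all genes, and their density per 100 kb was 0.716 and 0.806.

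Of 53 WNT, BMP, FGF and hedgehog ligands, 22 (41.5%) held 39 stretches, with 7 in Wnt3a, 4 in Fgf12 and 3 in Wnt6. Besides Hox genes, 4 lists had a density per 100 kb under the 0.423 of all genes: astrocyte and oligodendrocyte genes (0.395), microglial, endothelial and pericyte genes (0.357), Polycomb and H3K27 enzyme genes (0.390) and ribosomal protein genes (0.239). By the share of genes with a stretch the first 3 were above the 11.4% of all genes, at 7 of 31 (22.6%), 6 of 29 (20.7%) and 5 of 35 (14.3%), and the ribosomal list was below it, at 1 of 40. In the glial list Hes1, a Notch target, and Id3 and Id4, inhibitors of helix-loop-helix factors, had 1 each. The stretch at Id3 had percentiles from 89.8 to 95.1, and those at Id3 and Id4 met H3K27ac in all 4 lists. In the vascular list Erg, Fli1 and Flt1 had 1 each. Cbx7 and Crebbp had 2 each, and Rybp and the ribosomal protein gene Rpl6 1 each.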

How the data were processed

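Native ChIP for H3K27ac and H3K27me3 was performed in CINs and non-CINs sorted from P2 cortex, with 2 replicates each and 4 inputs, whose files were not used here. Per the labels and methods, the authors used BWA mem (0.7.15) to align reads to mm10, removed poorly mapped reads with SAMtools and ran MACS2 in broad mode on each replicate with its input (2.2.7 in the submitters' processing notes; the methods name another version) without a model or local background. The deposited fold enrichment is a ratio, ChIP over input, from the peak caller. The deposited −log10 q is the peak caller's significance, used only for a stricter list, and the deposited −log10 p and score were not used in any value. The lists hold no read counts, so depth is unknown, a stretch without a peak is one where no peak was called, and intervals cover the number of regions only. All lists were already thresholded by the authors. Groups came from the sample labels, and replicates are pools of litters. Both populations were sorted from dissociated cortex and the authors called differential peaks within each replicate, so same-numbered lists may share a pool, which the labels do not state. Over 8983 stretches the differences between replicates correlated across populations (r = 0.39, 2 pairs), and the comparison of populations is given with and without this pairing.

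Peaks were merged within each list (500 bp), stretches covered by all 4 H3K27me3 lists were kept, and promoters came from the GENCODE vM21 basic annotation. Fold enrichment was ranked within its list. Shares of regions were compared by two-sided Fisher's exact tests with Benjamini-Hochberg adjustment, and populations by an exact permutation test. H3K27ac needed an overlap of 1 bp. Sequence came from RefSeq GRCm38.p6, whose chromosome lengths equal those of mm10. The gene lists held the symbols of 13 groups, and 1 symbol (Tac3) was not in the annotation. Genes with most stretches, the strongest stretches, those nearest the length limit, those with H3K27ac in 1 population and those with the widest gaps between populations were named, with up to 3 genes per list; some of these are not reported here. The stretches and lists were chosen with earlier results of these data known. Python 3.11.15, pandas 2.3.3, NumPy 2.4.6, SciPy 1.17.1, pysam 0.24.0, bedtools 2.31.1 and matplotlib 3.10.9 were used. The steps were tested on simulated data, and the shared stretches equalled those of bedtools.

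Alternatives were other merging gaps, length limits, promoter windows and biotypes, a −log10 q of at least 4, coverage of at least 50% of each merged peak, stretches of at least 200 bp, leaving out each list, 1 stretch per locus, midpoints and other gene body or CpG definitions.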

Additional observations from a re-analysis of the deposited data

How the results depend on the processing

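The CpG difference from stretches at promoters and the gene body difference from peaks of 1 list kept their direction and stayed past 0.05 under every alternative tried for them, including each list left out (2.56 to 3.26% CpG-rich, 40.7 to 41.6% in gene bodies) and the 4856 stretches short and off promoters in every list. The CpG-rich share itself, 3.25% as reported, moved to 10.4% at 50% coverage, 5.74% with 1 stretch per locus, 5.49% at −log10 q of at least 4 and 2.08% over the whole stretch, and the odds ratio against promoters ran from 0.11 to 0.28 over all alternatives. The gene body share ran from 35.4% with promoters of 2 kb on either side to 51.5% with gene bodies of any biotype. The number of stretches was 15013 with no gap closed, 3493 at −log10 q of at least 4, 1081 where the stretch had to cover 50% of each merged peak and 3524 with 1 per locus, and 9666 to 11806 with a list left out.

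H3K27ac was rarer than at promoters in 4 of 4 lists as reported, and the difference passed 0.05 in 2 at −log10 q of at least 4, in 1 at 50% coverage, in 3 with 1 stretch per locus, in 2 by midpoint and in 3 for short stretches of 1000 bp or longer (chosen after seeing the data). Against long stretches it passed in 1 list at 50% coverage and in 0 by midpoint, where most lists had the opposite direction (odds ratios 0.99 to 1.82, adjusted p from 0.0792 to 1). The comparison with peaks of 1 list held in all 4 lists under each alternative tried. The odds ratios against promoters were 0.37 to 0.58 as reported, 0.54 to 0.86 at −log10 q of at least 4, 0.66 to 1.08 at 50% coverage, 0.53 to 0.74 with 1 stretch per locus and 0.67 to 0.97 by midpoint. The cause was not tested. The CIN minus non-CIN difference in H3K27ac ranged from -0.11 to 3.28 points with an H3K27ac list left out, and was -0.11 without CIN replicate 1.

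With the replicate block, in which both same-numbered pairs had to differ in the same direction, 1768 stretches (19.7%) were higher in CINs and 3868 (43.1%) in non-CINs, a looser rule by construction, against 20.8% and 41.9% of all shared stretches. With the mean fold enrichment weighted by overlap, which is not on 1 scale between lists, 347 (3.86%) were higher in CINs and 2109 (23.5%) in non-CINs. Of all shared stretches, 3.66% and 19.7% were. With a list left out, a looser rule by construction, the counts ran from 1547 (without non-CIN replicate 1) to 2991 (without non-CIN replicate 2) for CINs and from 3123 to 4848 (without non-CIN replicate 1) for non-CINs. The median distance to a long stretch moved beyond its 95% interval in 9 of 14 alternatives. The alternatives on the members of at least 200 bp, on lists left out of the population comparisons and on stretches off promoters in every list were chosen after seeing the data.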

Other observations

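Among the 183 stretches with a lowest percentile of at least 95, 9 were shorter than 1000 bp, and 8 of these met H3K27ac in all 4 lists, while 3 of the 174 of 1000 bp or longer did. This split was chosen after the values were seen and was not tested. The median H3K27ac percentile at the 8 was between 75.9 and 91.1 in the 4 lists, and the remaining 1 of the 9 met no H3K27ac peak. The windows of the 9 were soft-masked over a median of 17.0%, against 8.33% for the longer ones. The stretch of 552 bp at chr9:35305069-35305620, whose sequence is given in the report, held the top peak of 3 H3K27me3 lists and of 3 H3K27ac lists, and ranked at 98.9 and 74.2 in those of non-CIN replicate 1. The stretch of 514 bp at chr11:109011646-109012159 was CpG-rich, with 26 CpGs in 300 bp, and had H3K27ac percentiles from 74.0 to 86.7. How reads that map to repeated sequence bear on these values was not tested.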
